A study of Homo sapiens with 6 samples.

Results

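The genes described here are 10 regulators of the integrated stress response: the kinase genes EIF2AK3 and EIF2AK4, the transcription factor genes ATF4, CEBPG, ATF5, ATF3 and DDIT3, and the effector genes TRIB3, CHAC1 and SESN2. They were picked by gene symbol from an expression table of 34738 genes, and all 10 had a row in it. The table holds poly(A) RNA measurements of 6 libraries from human thyroid cancer cells. In 3 libraries GDF15 had been knocked down by transfection of an siRNA (siGDF15), 3 were controls (NC), and siGDF15 is compared with NC throughout. The labels give KHM-5M as the cell line of every library, whereas a figure legend of the study names TPC-1 for the sequenced cells. The study's methods speak of negative control cells and list a negative control siRNA, a legend speaks of vector controls, and the deposited design text of a blank control. Delivery of the siRNA used a Lipofectamine reagent in medium without serum. Should the controls have had no siRNA, effects of that delivery and of lowering GDF15 cannot be told apart here. The study lists a single siRNA sequence against GDF15. Effects of that siRNA on other genes and of lowering GDF15 cannot be told apart, whatever the controls received. Replicates are described as biological, and how long after transfection the cells were harvested is not given in the sources used here.

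In the integrated stress response, several kinases sense different stresses and phosphorylate the same translation initiation factor, eIF2. Phosphorylated eIF2 lowers protein synthesis in general but favours translation of a few messages, chief among them ATF4, so that ATF4 activity depends on translation as well as on its RNA. The ATF4 protein pairs with other basic leucine zipper (bZIP) factors, often of the C/EBP family, and activates genes of amino acid supply, redox balance and, under lasting stress, cell death. GDF15 is itself known as a target gene of this response. RNA levels do not show how much eIF2 is phosphorylated or how much ATF4 protein is made, and neither was measured in these libraries.

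In the siGDF15 group 5 of the 9 regulators that could be tested fell and 1 rose. CHAC1 fell to 0.244 times its NC level and CEBPG to 0.506 times, while ATF4, EIF2AK4 and TRIB3 fell to between 0.764 and 0.813 times. DDIT3 rose to 1.40 times its NC level. ATF5, EIF2AK3 and SESN2 did not pass the test, and ATF3 was under the expression limit of the main test. The test was the quasi-likelihood test of edgeR, run on the deposited expected counts, and a gene is said to have risen or fallen when its p-value, adjusted over all genes tested, was under 0.05. Of the 11867 genes tested (mean FPKM of at least 1 over the libraries), 61.4% passed, 30.0% as higher and 31.4% as lower in siGDF15, so passing the test was common in these data. In RNA from a whole culture, fewer cells that express a gene and less RNA per cell cannot be told apart.

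A DNA element known from genes that ATF4 activates, the C/EBP-ATF response element, was searched for around the start sites of the 10 genes. The search used the letters TGATGNAA on both strands, where N is any base, in windows from 250 bases before to 50 bases after each start that RefSeq annotates on GRCh38.p14. All 10 genes had at least 1 window, 18 in all. The letters occurred in 3 of these 18 windows, 1 each of CHAC1, CEBPG and ATF3, and in 3.62% of the 35116 windows of all genes. Counted by gene, they occurred in 3 of the 10 and in 4.46% of the 27305 genes with a window. The narrower form TGATGCAA occurred in 2 of the 10, CHAC1 and CEBPG, in 1.08% of all genes and in 0.866% of all windows. CHAC1 and CEBPG are also the regulators with the largest falls in the siGDF15 group, and ATF3, the third holder of the letters, was higher there. The stretches of 30 bases that hold the letters are shown because they set these genes beside ASNS, a classic ATF4 target whose element has been studied in detail. Each is written 5′ to 3′ on the strand of its gene, with the matching letters in capitals.
CHAC1, chr15:40953251-40953280, plus strand: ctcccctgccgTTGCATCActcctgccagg
CEBPG, chr19:33374060-33374089, plus strand: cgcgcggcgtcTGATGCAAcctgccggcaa
ATF3, chr1:212565205-212565234, plus strand: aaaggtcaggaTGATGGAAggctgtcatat
ASNS, chr7:97872458-97872487, minus strand: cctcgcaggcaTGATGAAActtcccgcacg
In CHAC1 the letters are read on the opposite strand, as TTGCATCA, and begin 209 bases before the RefSeq start, inside the first exon of 2 longer GENCODE 29 models. In CEBPG they begin 42 bases before the second of its starts, within an intron of a longer transcript. In ATF3 they begin 191 bases before the upstream start, where no GENCODE 29 transcript lies. In ASNS they begin 68 bases before the RefSeq start, within exons of longer models. A match says only that the letters are present, and binding was not measured. No window of ATF4, ATF5, DDIT3, TRIB3, SESN2, EIF2AK3 or EIF2AK4 held the letters. Bases outside the windows were not searched, so these genes may hold the element farther from their starts.

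Total counts were between 67569576 and 68025163 in the NC libraries and between 51738814 and 67793417 in the siGDF15 libraries, the lowest being siGDF15 replicate 2. GDF15 was at 22.4, 19.3 and 23.1 FPKM in NC and at 10.8, 10.5 and 10.7 FPKM in siGDF15, a log2 fold change of -0.92 (SE 0.079, adjusted p = 2.4e-05 from edgeR). FPKM is a fragment number scaled to transcript length and to the mapped fragments of the library. The expected counts were worked out from coverage and are not a tally of reads, so counting error cannot be read from them directly. The total count of every library is above the average number of reads per sample that the study states. What this does to the SEs was not tested. The mitochondrial share of counts was 6.39 to 6.78% in NC and 8.53 to 9.17% in siGDF15, and its part in the results below was not tested. For thyroid follicular cells, PAX8 was at 54.3 to 64.9 FPKM in NC and at 77.5 to 80.4 FPKM in siGDF15, whereas TG did not exceed 0.219 FPKM, SLC5A5 and NKX2-1 were at or near 0, and TSHR had no row. Of the leukocyte markers, PTPRC, CD3E and LYZ were at or near 0 in all libraries, and the summed level of the list was 17.9 to 19.7 FPKM in NC and 16.6 to 18.6 FPKM in siGDF15, nearly all of it CD68. CD14, of the same list, was at 0.249, 0.242 and 0.107 FPKM in NC and at 0.739, 0.682 and 0.592 FPKM in siGDF15, without overlap. The endothelial and fibroblast markers summed to 19.0 to 24.4 and 20.2 to 23.1 FPKM, with PECAM1, VWF and CDH5 near 0. Most of the sum was COL3A1, at 13.7 to 16.9 FPKM over the libraries, and COL1A1, at 4.67 to 6.78 FPKM. The 6 epithelial markers all had positive log2 fold changes. They summed to 108 to 159.7 FPKM in NC and 136 to 147 FPKM in siGDF15. CDH1 alone passed (0.61, adjusted p = 0.049 from edgeR), although its FPKM groups overlapped. Its call was lost without TMM (adjusted p = 0.084), at a mean FPKM limit of 0.1 (0.076) and with no filter (0.14). It was also lost without NC replicate 1 or 2 and without any 1 of the siGDF15 libraries (adjusted p = 0.072 to 0.15). The part of these markers in the results was not tested.

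**Figure D1:**
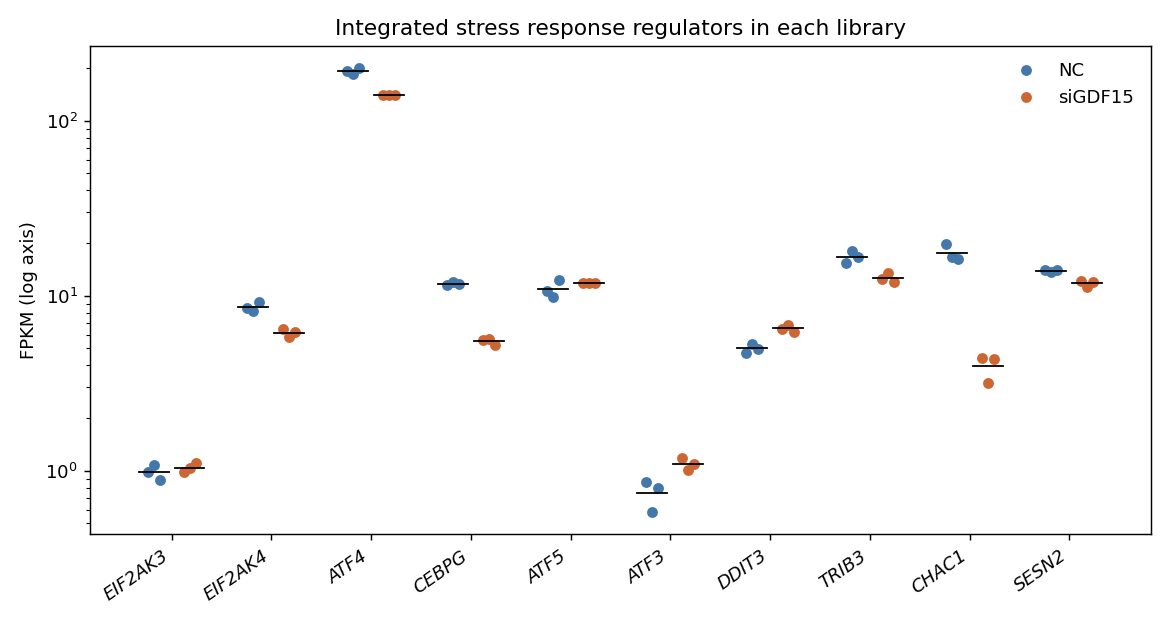
FPKM (log axis) of the 10 regulators in each library, with NC in blue, siGDF15 in orange and a black line at each group mean of 3 libraries. ATF4 stands above the other genes in both groups, and CHAC1 drops from 16.3 or more in NC to 4.42 or less in siGDF15.

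Among the 10 genes ATF4 had by far the highest level, at 192 ± 7.21 FPKM (SD, n = 3) in NC. The order of mean FPKM in NC was ATF4, CHAC1, TRIB3, SESN2, CEBPG, ATF5, EIF2AK4, DDIT3, EIF2AK3 and ATF3, in which CHAC1 and TRIB3 overlapped, as did CEBPG and ATF5. In siGDF15 the order was ATF4, TRIB3, ATF5, SESN2, DDIT3, EIF2AK4, CEBPG, CHAC1, ATF3 and EIF2AK3. There SESN2 overlapped both TRIB3 and ATF5, DDIT3 overlapped EIF2AK4, and ATF3 overlapped EIF2AK3. CHAC1 thus moved from rank 2 to rank 8 and DDIT3 from rank 8 to rank 5. These ranks compare levels per transcript length.

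The annotation in the deposited table places 5 of the 10 genes in the bZIP family, namely ATF4, CEBPG, ATF5, ATF3 and DDIT3. It assigns 4 of them, ATF4, DDIT3, EIF2AK3 and EIF2AK4, to protein processing in the endoplasmic reticulum. Of the bZIP genes, ATF4 and CEBPG fell, DDIT3 rose and ATF5 did not pass. Of the kinases, EIF2AK4 fell and EIF2AK3 did not pass. No difference between members was tested here other than the ratios to ATF4 given further on.

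EIF2AK4 encodes GCN2, the eIF2 kinase that responds to uncharged tRNA when amino acids are short (ENSG00000128829, chromosome 15 from 39934115 to 40035591, plus strand). It was at 8.53, 8.16 and 9.26 FPKM in NC and at 6.45, 5.78 and 6.21 FPKM in siGDF15. Every siGDF15 library lay below every NC library. The log2 fold change was -0.39 (SE 0.063, adjusted p = 8.2e-04 from edgeR), larger than the spread between replicates. EIF2AK3 encodes PERK, the kinase in the membrane of the endoplasmic reticulum that responds to unfolded protein (ENSG00000172071, chromosome 2 from 88556741 to 88691518, minus strand). It was expressed close to the limit of the test, at 0.977, 1.07 and 0.890 FPKM in NC and at 0.985, 1.04 and 1.10 FPKM in siGDF15. The groups overlapped, and the log2 fold change of 0.19 (SE 0.083, adjusted p = 0.071 from edgeR) did not pass. Without NC replicate 2 it was 0.26 and passed (adjusted p = 0.021), and after scaling libraries to equal medians it was 0.25 and passed (adjusted p = 0.026). With limma on log2(FPKM + 1) it was 0.045.

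ATF4 (ENSG00000128272, chromosome 22 from 39519695 to 39522683, plus strand) was at 192, 185 and 199.7 FPKM in NC. In siGDF15 it was at 141, 140.3 and 139.8 FPKM. The groups did not overlap, and the siGDF15 libraries were close together, at 140.3 ± 0.545 FPKM (SD, n = 3). The log2 fold change was -0.35 (SE 0.046, adjusted p = 2.6e-04 from edgeR), a fall of 21.5%. The fall is smaller on this scale than the FPKM means show, because the TMM normalization applied to counts multiplied library sizes by factors of 1.03 to 1.04 in NC and 0.958 to 0.972 in siGDF15. With library totals and no TMM the log2 fold change of ATF4 was -0.45, and in that setting the median over the tested genes was -0.099. Processed copies of ATF4 listed in the table, ATF4P1 to ATF4P4, were each at 0.858 FPKM or less in every library.

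CEBPG encodes C/EBPγ, a bZIP factor that lacks an activation domain of its own and forms heterodimers with ATF4 (ENSG00000153879, chromosome 19 from 33373685 to 33382686, plus strand). Its levels were 11.4, 11.96 and 11.7 FPKM in NC. In siGDF15 they were 5.61, 5.68 and 5.22 FPKM. The groups were far apart relative to their spread, with means of 11.7 ± 0.257 and 5.50 ± 0.244 FPKM (SD, n = 3). CEBPG had a log2 fold change of -0.98 (SE 0.061, adjusted p = 4.1e-06 from edgeR), and 597 of the 11867 tested genes had a lower one. ATF5 encodes a bZIP factor whose translation, like that of ATF4, is controlled by upstream reading frames (ENSG00000169136, chromosome 19 from 49928702 to 49933935, plus strand). It was at 10.7, 9.82 and 12.3 FPKM in NC and at 11.8, 11.9 and 11.8 FPKM in siGDF15. The siGDF15 values lay inside the range of NC, and the log2 fold change of 0.22 (SE 0.088, adjusted p = 0.061 from edgeR) did not pass. It depended on NC replicate 3, the highest NC library, without which it was 0.31 and passed (adjusted p = 0.0025). It also passed with DESeq2 (0.22, adjusted p = 0.042) and after scaling to equal medians (0.27, adjusted p = 0.032). Without TMM it was 0.11 (adjusted p = 0.28) and with limma on log2(FPKM + 1) 0.11 (adjusted p = 0.25). ATF5 overlaps NUP62 on the opposite strand over 1063 of its 5234 bases, and NUP62 had a log2 fold change of -0.65 (adjusted p = 1.1e-05 from edgeR). The libraries mark strand, but whether the counting used it is not given in the sources used here.

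DDIT3 encodes CHOP, a bZIP factor that ATF4 induces and that is linked to cell death under lasting stress (ENSG00000175197, chromosome 12 from 57516588 to 57521737, minus strand). It was at 4.71, 5.33 and 4.99 FPKM in NC and at 6.47, 6.82 and 6.22 FPKM in siGDF15. All siGDF15 libraries were above all NC libraries. The log2 fold change was 0.48 (SE 0.11, adjusted p = 0.0045 from edgeR), and the gene passed the test in each fit that left out 1 library (adjusted p = 0.0052 to 0.024). DDIT3 shares 982 of its 5150 bases with MARS1 and 1028 with MBD6, both on the opposite strand. MARS1 had a log2 fold change of -1.10 and MBD6 of 0.25 (adjusted p = 6.7e-07 and 0.010 from edgeR), and the part of MBD6 reads in the DDIT3 count was not tested.

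ATF3 encodes a stress-induced bZIP factor that often acts as a repressor (ENSG00000162772, chromosome 1 from 212565334 to 212620772, plus strand). Its level was low, at 0.865, 0.580 and 0.801 FPKM in NC and at 1.19, 1.01 and 1.09 FPKM in siGDF15, from 178 to 362 counts per library. The groups did not overlap. As its mean was under 1 FPKM it did not enter the main test, and in the fit over 19360 genes with a mean of at least 0.1 FPKM its log2 fold change was 0.62 (SE 0.19, adjusted p = 0.026 from edgeR). In that fit 20.1% of genes passed as higher. The call was lost without siGDF15 replicate 1 (0.56, adjusted p = 0.088), without siGDF15 replicate 3 (0.63, adjusted p = 0.068) and when no filter was used (0.60, adjusted p = 0.055).

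CHAC1 encodes a cytosolic enzyme that degrades glutathione and is among the genes most strongly induced through ATF4 (ENSG00000128965, chromosome 15 from 40952962 to 40956512, plus strand). It was at 19.8, 16.7 and 16.3 FPKM in NC. In siGDF15 it was at 4.42, 3.16 and 4.35 FPKM, lowest in the library with the fewest counts. The lowest NC value was far above the highest siGDF15 value. The log2 fold change was -2.03 (SE 0.13, adjusted p = 5.2e-06 from edgeR), and only 19 of the 11867 tested genes had a lower one. It was -1.90 without siGDF15 replicate 2 and stayed between -2.11 and -1.90 with each library left out in turn. CHAC1 was the single regulator to pass when a log2 fold change of -1 or lower was also required, a limit that 4.78% of tested genes met.

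TRIB3 encodes a pseudokinase that is induced by ATF4 and CHOP and in turn restrains them (ENSG00000101255, chromosome 20 from 362835 to 397559, plus strand). Its levels were 15.4, 18.03 and 16.6 FPKM in NC and 12.4, 13.5 and 11.9 FPKM in siGDF15. The groups did not overlap, and the log2 fold change was -0.30 (SE 0.078, adjusted p = 0.0100 from edgeR). SESN2 encodes sestrin 2, a leucine-binding protein that restrains mTORC1 and responds to ATF4 and to p53 (ENSG00000130766, chromosome 1 from 28259518 to 28282491, plus strand). Its levels were 14.01, 13.7 and 14.04 FPKM in NC and 12.1, 11.2 and 12.04 FPKM in siGDF15. The FPKM groups did not overlap, yet the log2 fold change of -0.14 (SE 0.054, adjusted p = 0.055 from edgeR) did not pass. SESN2 passed without TMM (-0.24, adjusted p = 0.0056), with both lower expression limits and with limma on log2(FPKM + 1) (-0.23, adjusted p = 0.0042). It was farthest from passing after scaling to equal medians (-0.083, adjusted p = 0.22).

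**Figure D2:**
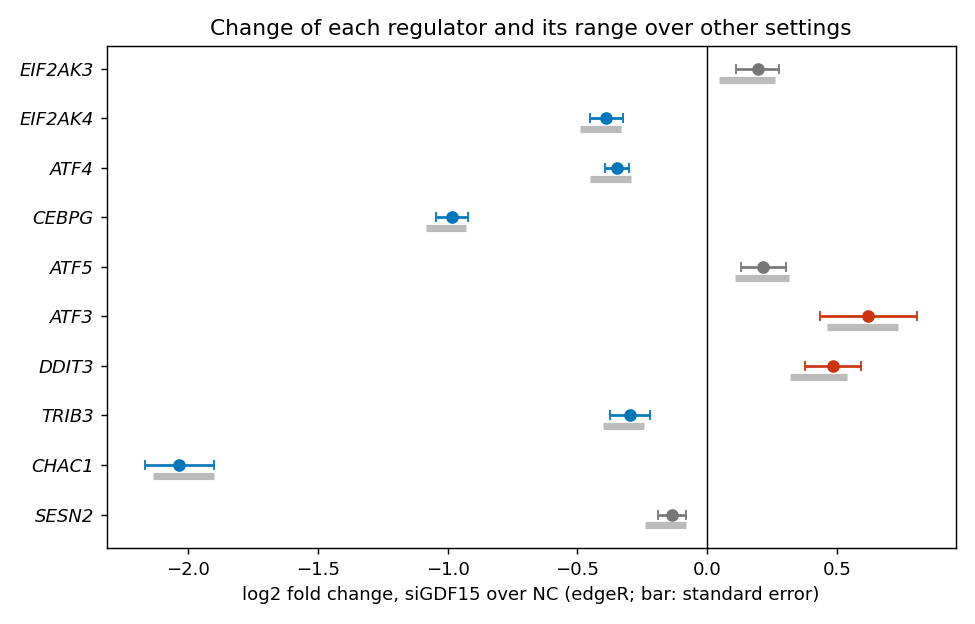
Log2 fold change of each regulator, siGDF15 over NC, with its standard error (points and bars, blue for genes that fell, red for genes that rose, grey for genes that did not pass) and the range over all other settings tried (light bars). The ATF3 point comes from the fit with a mean of at least 0.1 FPKM, and no light bar crosses 0.

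Across the set, the FPKM groups did not overlap for 7 of the 9 tested regulators, against 68.4% of all tested genes. With 3 libraries per group the smallest two-sided p of an exact permutation test is 0.1, and each of these 7 genes had that value. The median log2 fold change of the 9 was -0.30, against 0.0026 over all tested genes, with 3 higher and 6 lower. The 5 falls and the single rise stand against the shares of 31.4% and 30.0% given above.

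A ratio of FPKM taken within a library does not depend on how libraries are scaled to each other. Relative to ATF4 in the same library, TRIB3 was at 8.06, 9.73 and 8.32% in NC and at 8.82, 9.64 and 8.53% in siGDF15. EIF2AK4 was at 4.45, 4.40 and 4.64% in NC and at 4.58, 4.12 and 4.44% in siGDF15. For both genes the groups overlapped, so a change unequal to that of ATF4 was not detected (exact permutation test, two-sided p = 0.60 and 0.50). CHAC1 went from 10.3, 9.02 and 8.15% of the ATF4 level in NC to 3.14, 2.25 and 3.11% in siGDF15, and CEBPG from 5.97, 6.45 and 5.86% to 3.98, 4.05 and 3.74%. Both therefore fell more than ATF4 did. DDIT3 went from 2.46, 2.87 and 2.50% to 4.59, 4.86 and 4.45%, and ATF3 from 0.452, 0.313 and 0.401% to 0.841, 0.721 and 0.783%. ATF5, EIF2AK3 and SESN2 were also higher relative to ATF4 in every siGDF15 library, by factors of 1.48, 1.45 and 1.16 between group means. For these 7 genes the groups did not overlap (p = 0.10 in the exact permutation test, again the smallest value possible). Among the other 11866 tested genes the groups also did not overlap, as higher relative to ATF4, for 61.9% and, as lower, for 13.5%, so standing higher relative to ATF4 was common in these data.

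**Figure D3:**
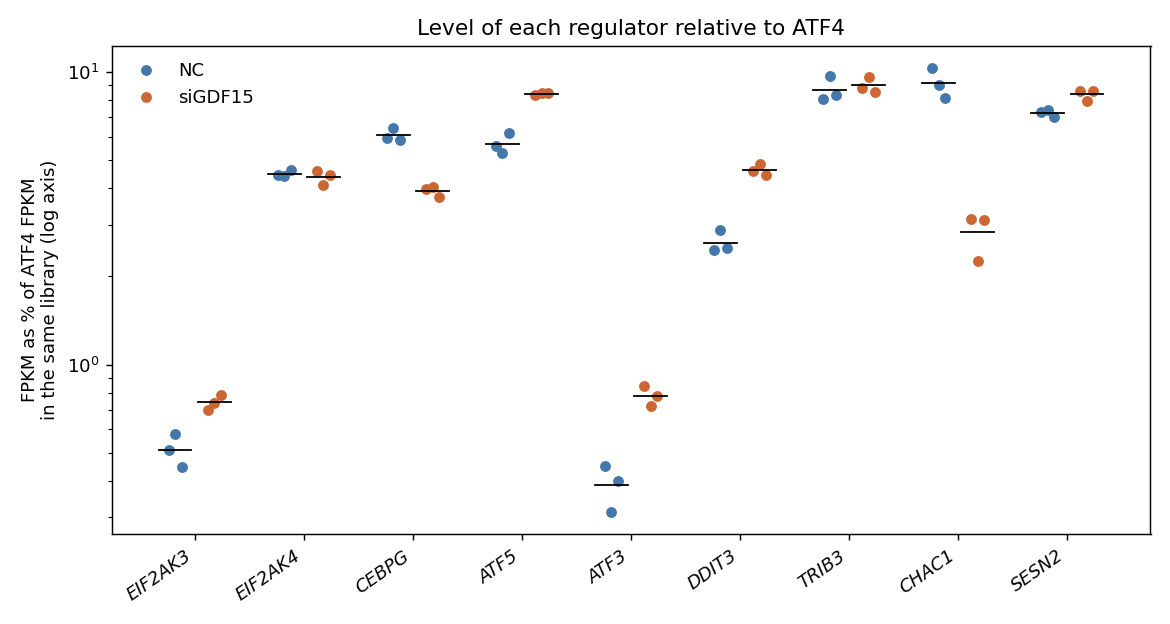
FPKM of the 9 other regulators as a percent of the ATF4 FPKM in the same library (log axis), NC in blue, siGDF15 in orange, black lines at group means of 3 libraries. EIF2AK4 and TRIB3 keep overlapping groups, CHAC1 and CEBPG sit lower in siGDF15, and the other 5 sit higher, as did 61.9% of the tested genes.

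The tested gene most like ATF4 over the 6 libraries was HNRNPL, and LONP1 was among the 3 most like it. Likeness was the root mean square difference of log2 CPM after subtracting each gene's NC mean, and it was 0.0059 for HNRNPL and 0.018 for LONP1. HNRNPL was at 52.9, 50.6 and 55.2 FPKM in NC and at 38.6, 38.6 and 38.4 FPKM in siGDF15. Of the other regulators EIF2AK4 was nearest to ATF4, with a difference of 0.058, and CHAC1 farthest, with 1.21.

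Of 32 genes that ATF4 is known to activate 24 fell and 2 rose, against 31.4% and 30.0% of all tested genes. Their median log2 fold change was -0.57, against 0.0026 over all tested genes. This list, like the others, was chosen with earlier results of these data known. Most reduced were ASNS, asparagine synthetase (from 31.6 ± 1.45 to 4.50 ± 0.275 FPKM, SD, n = 3, log2 fold change -2.70), and PSAT1 (from 272 ± 2.65 to 47.2 ± 1.54 FPKM, log2 fold change -2.42). PHGDH, which with PSAT1 makes serine, had a log2 fold change of -1.88. SLC7A11, the cystine transporter subunit that feeds glutathione synthesis, had a log2 fold change of -1.75. The rising targets were ALDH18A1, of proline synthesis (0.56), and CEBPB (0.29). The log2 fold change of ATF4 RNA itself, -0.35, was smaller in size than the median of -0.57 of these genes. All of these calls are edgeR calls with adjusted p under 0.05.

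Upstream of ATF4, a list held the other eIF2 kinases, eIF2, its exchange factor eIF2B and the eIF2 phosphatase, together with IMPACT, GCN1 and DNAJC3. In this list of 18 tested genes 6 fell, 3 rose and 9 did not pass. Its median log2 fold change was -0.06, and its share of falling genes was near the 31.4% of all tested genes. Of all tested genes 30.0% rose. EIF2AK2, the kinase PKR that responds to double-stranded RNA, fell from 7.74 ± 0.195 to 5.19 ± 0.491 FPKM (SD, n = 3, log2 fold change -0.47). EIF2B3 (-0.57), a subunit of eIF2B, and EIF2S2 (-0.42), the β subunit of eIF2, also fell. Of the phosphatase subunits, PPP1R15B (CReP), the constitutive one, fell (-0.39), and PPP1R15A (GADD34), the one that stress induces, rose (0.24). The call of PPP1R15A was lost without TMM (0.14, adjusted p = 0.057). IMPACT, an inhibitor of GCN2, rose from 5.67 ± 0.453 to 7.77 ± 0.140 FPKM (log2 fold change 0.56), while EIF2AK4 fell. EIF2S3 also passed (0.16), although its FPKM groups overlapped, and lost its call without TMM (0.061, adjusted p = 0.33) and in 5 of the 6 fits without 1 library. The heme-regulated kinase EIF2AK1 did not pass (log2 fold change 0.060, adjusted p = 0.22 from edgeR). Without TMM 10 of these 18 genes fell and 1 rose, beside 4679 and 2701 of the 11867 tested genes in that setting.

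For the other arms of the unfolded protein response, 7 of 15 tested genes fell and 2 rose, beside 31.4% and 30.0% of all tested genes. The median log2 fold change of the 15 was -0.19. Most reduced were MANF (-0.59), DNAJB11 (-0.43), SDF2L1 (-0.35) and PDIA4 (-0.35), which serve protein folding in the endoplasmic reticulum. SDF2L1 lost its call without NC replicate 1, siGDF15 replicate 1 or siGDF15 replicate 2 (adjusted p = 0.053 to 0.063). HERPUD1, a component of endoplasmic reticulum-associated degradation, rose from 12.5 ± 0.163 to 21.4 ± 0.675 FPKM (SD, n = 3, log2 fold change 0.88), and the chaperone gene HSPA5 rose by 0.22 on the log2 scale. Of 17 tested bZIP partner factors 6 rose and 5 fell, close to the 30.0% and 31.4% of all tested genes. CEBPD rose from 25.3 ± 4.21 to 65.9 ± 2.87 FPKM (log2 fold change 1.49), and JUND (0.98), MAFK (0.60) and FOSL2 (0.33) rose as well. JDP2 (-1.24), FOSL1 (-0.84), CEBPA (-0.55) and CREB1 (-0.35) fell. JDP2 is on the list of ATF4 targets as well, and so is CEBPB.

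Sestrins act on GATOR2, the complex that holds back GATOR1, an inhibitor of mTORC1. Of 9 tested genes of this module 4 rose, 2 fell and 3 did not pass, beside 30.0% higher and 31.4% lower among all tested genes. CASTOR1, an arginine sensor (0.87), SEC13 (0.82), NPRL3 (0.30) and WDR59 (0.24) rose, and MIOS (-0.48) and SESN1 (-0.41), a paralog of SESN2, fell. The FPKM groups of WDR59 overlapped, and its call was lost without TMM (0.14, adjusted p = 0.18) and without any 1 of the siGDF15 libraries (adjusted p = 0.055 to 0.091). Of 7 genes tied to mitochondrial stress 3 fell and 1 rose, beside the same shares of all tested genes. HSPD1 (-0.65) and HSPE1 (-0.63), which form the mitochondrial chaperonin, and LONP1 (-0.34) fell. DELE1, which relays mitochondrial stress to the kinase encoded by EIF2AK1, rose from 9.29 ± 0.404 to 12.5 ± 0.127 FPKM (SD, n = 3, log2 fold change 0.53). Values in parentheses are log2 fold changes from edgeR.

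**Figure D4:**
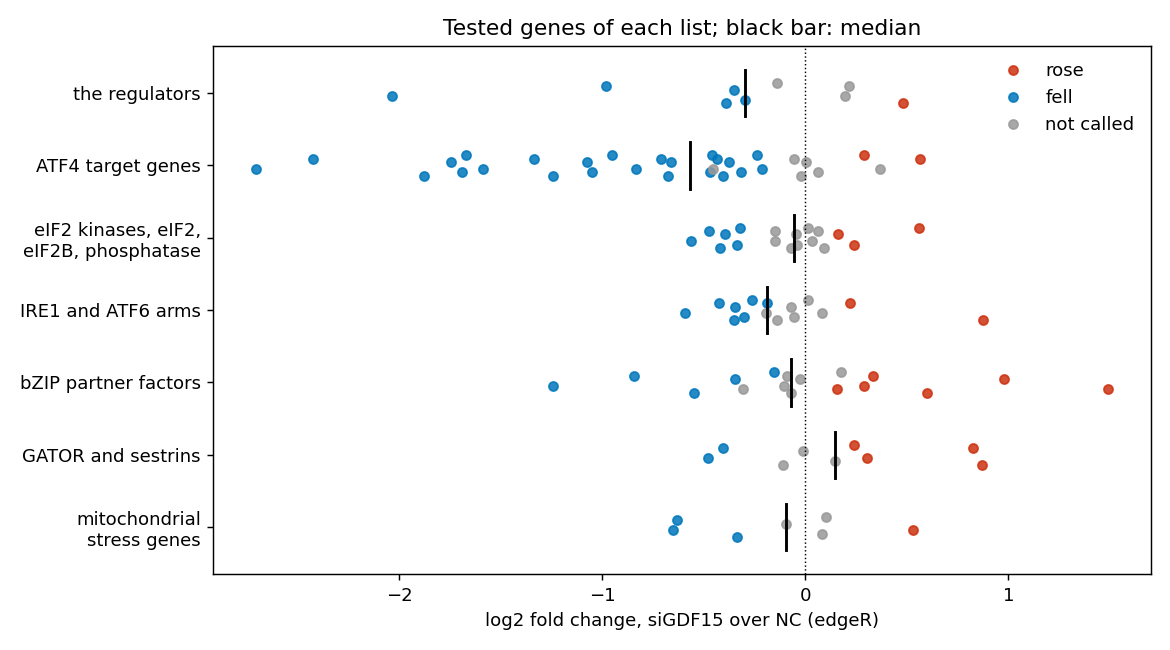
Log2 fold change (siGDF15 over NC) of each tested gene in the regulators and the 6 pathway lists plotted (marker lists are not shown), red for genes that rose, blue for genes that fell and grey for genes that did not pass, with a black bar at each median. Among the lists plotted, the ATF4 targets have the lowest median, -0.57, and the GATOR and sestrin list the highest, 0.15.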

How the data were processed

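RNA of siGDF15 and NC cells (3 libraries each, grouped by sample title) was sequenced as poly(A) RNA in strand-marked libraries. Per the submitters' processing notes fastp, HISAT2, StringTie and edgeR were used with GRCh38, and versions, options and annotation release are not given in the sources used here. Deposited were FPKM values, which correct for transcript length and mapped fragments, and expected counts, whole numbers that the authors estimated from StringTie coverage without normalization. No column was left unassigned.

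The counts were rounded and tested with edgeR 4.0.16 (R 4.3.3): TMM, quasi-likelihood test, two-sided, Benjamini-Hochberg adjustment over genes whose mean FPKM was 1 or more. SE is the log2 fold change divided by the root of the F statistic. limma 3.58.1 and DESeq2 1.42.0 served as alternatives. In simulated counts of 11867 genes for this comparison 200 genes were changed, 100 by 1 and 100 by 0.5 on the log2 scale. Of these, 91% and 68% were recovered. In the data a far larger share of genes, 61.4%, passed, so these rates may not hold for the data. ATF3 had the fewest counts of the regulators, and counting intervals were not computed.

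The 10 regulators and all gene lists were chosen with earlier results of these data known. Named were all regulators, up to 4 called genes of each list and direction with the largest changes, and the 3 genes closest to ATF4, except items that are not reported here. MARS1, MBD6, NUP62, the ATF4 copies and single cell type markers were named after their values were seen. Promoter windows are RefSeq's (GRCh38.p14), matched by symbol.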

Additional observations from a re-analysis of the deposited data

How the results depend on the processing

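Over 15 alternatives for each of the 9 tested regulators, and 9 for ATF3, no log2 fold change turned its direction. CHAC1 kept its call in all 15, and ATF4, CEBPG, TRIB3, EIF2AK4 and DDIT3 kept theirs in the 14 that did not also require a log2 fold change of at least 1. ATF3 settings with its own expression limit were chosen after seeing the data. The regulators that fell numbered 5 in each fit without 1 library and 1 when that size was required. They numbered 6 without TMM, with limma (FPKM plus 1 and plus 0.1), at a mean FPKM limit of 0.1 and without a filter. Of all tested genes 4679, 4653, 4647, 4284 and 4062 fell in these settings, in that order. The limit of 0.1 tested 19360 genes, no filter 34738 and the other settings 11867. Regulators that rose numbered 1 to 2 without 1 library, 2 with DESeq2, 2 at the 0.1 limit and 3 after scaling to equal medians. They numbered 0 when that size was required. Of all tested genes 3679 rose with DESeq2, 3885 at the 0.1 limit and 4074 with equal medians. With that size required, 360 of all tested genes rose and 567 fell. Of the ATF4 targets 11 then fell and 0 rose, of the bZIP partner factors 1 rose and 1 fell, and of the eIF2, unfolded protein, GATOR and mitochondrial lists 0 rose and 0 fell. In the eIF2 list 10 genes fell with library totals without TMM and with limma on log2 of FPKM plus 1 or plus 0.1. In that list 1 gene rose without TMM. Of all tested genes 4679, 4653 and 4647 fell in these settings, in that order, and 2701 rose without TMM. Without 1 library the counts of falling and rising ATF4 targets were 23 to 24 and 2 to 3, and those of all genes 3183 to 3758 and 3014 to 3665. The share of higher genes among all called was 48.9%, 36.6% without TMM and 55.8% with equal medians. Deviations of same-numbered replicates from their group means had correlations of 0.028, -0.075 and 0.046, and those of differently numbered replicates lay between -0.135 and 0.089. With 3 libraries per group these values cannot show whether same-numbered replicates were handled together. With the replicate number as a block, 5 regulators fell and 1 rose.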
